A study of Xenopus tropicalis with 192 samples.

Results

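DNA methylation in the webbing skin of young and old adult frogs of *Xenopus tropicalis*, the western clawed frog, was compared within a single sequencing lane. The members are 42 of the 192 frogs of the series: the 31 adults aged under 1 year and the 11 frogs aged 2878 days that were sequenced on lane 2. They were chosen by age, tissue label and lane, and not by methylation. All 6717 CpGs of the deposited table were compared. The comparison answers which CpGs differ over a wide span of adult age when the lane is held the same.

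The young frogs came from 3 tanks, and each tank held a single strain at a single age. Tank B226 held 19 frogs of NIGERIAN F8 at 269 days, tank ?3 held 3 frogs of Xtr.Tg(cryga:GFP)Grngr at 273 days, and tank A228 held 9 frogs of SUPERMAN F8 at 332 days. The old frogs came from 2 tanks, with 5 frogs of Xtr.Et(eef1a1:GFP)psvbiMead in tank A227 and 6 frogs of Xtr.Et(eef1a1:GFP)folMead in tank A229. All of these strains have a Nigerian background and the labels give no treatment. GFP is present in the frogs of tank ?3, under the promoter of the lens gene cryga, and in both old strains, which carry eef1a1:GFP insertions. No strain occurred at both ages, so that age, strain and tank cannot be told apart. The library names of tank ?3 contain the word Tadpole, whereas the labels give hindlimb webbing, and counts without this tank are given where they matter. Sex was not given in the sources used here.

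DNA methylation in vertebrates is placed mainly on the cytosine of CpG dinucleotides, where DNMT1 copies the pattern to the new strand after replication and TET enzymes start its removal. Most CpGs of a vertebrate genome are highly methylated, and CpG-rich promoters of developmental regulators are typically kept unmethylated. With age, many methylated CpGs of animals lose methylation, while some unmethylated promoters gain it. The webbing of the hindlimb is a thin skin with epidermis, dermis and connective tissue, and cells of all of these contribute to a skin punch. A different makeup of cells and a different methylation within cells cannot be told apart in such bulk samples.

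The panel was built from probes over regions whose methylation followed age in an earlier study of other frogs, so the share of CpGs that differ here is a share of a panel chosen for age. Each probe is 120 bases long. The following probes carry CpGs that the results turn on, namely the CpG of srgap1 at which all old frogs were below all young frogs, the CpGs of clic4 and dpyd with large falls, the pde3a probe in which every measured position fell, and the cop1 CpG that rose. Capitals mark the CpGs that were measured, the strand is as the probe set gives it, and coordinates are those listed for the probes on v10.0.
srgap1, chr3:57149950-57150070: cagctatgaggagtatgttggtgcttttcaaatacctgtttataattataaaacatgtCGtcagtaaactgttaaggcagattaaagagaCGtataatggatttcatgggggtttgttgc
clic4, first probe, chr2:89968426-89968546: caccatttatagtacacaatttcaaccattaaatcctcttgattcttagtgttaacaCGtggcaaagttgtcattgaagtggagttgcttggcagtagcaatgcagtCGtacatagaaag
clic4, second probe, chr2:90011462-90011582: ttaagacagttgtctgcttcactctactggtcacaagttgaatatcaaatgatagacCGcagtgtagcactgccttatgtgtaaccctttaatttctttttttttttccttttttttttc
dpyd, chr4:102689587-102689707: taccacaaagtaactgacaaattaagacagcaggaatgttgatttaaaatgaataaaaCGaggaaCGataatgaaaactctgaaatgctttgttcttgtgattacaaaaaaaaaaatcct
pde3a, chr3:904171-904291: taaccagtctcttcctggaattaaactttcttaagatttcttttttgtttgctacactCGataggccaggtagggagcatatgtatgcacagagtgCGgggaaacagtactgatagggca
cop1, chr4:98635844-98635964: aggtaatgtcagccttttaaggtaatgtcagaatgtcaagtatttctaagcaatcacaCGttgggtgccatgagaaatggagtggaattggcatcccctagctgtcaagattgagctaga

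The mean methylation over all CpGs was lower in the old frogs. The 31 young frogs lay between 0.819 and 0.838 (median 0.828), and the 11 old frogs between 0.805 and 0.816 (median 0.812). All 31 young frogs lay above the highest old frog. The means were 0.829 ± 0.00547 (SD, n = 31) and 0.811 ± 0.00379 (SD, n = 11), a difference of -0.0180 (permutation test over frogs, two-sided, p = 2e-05, the smallest these permutations can give). Frogs of a tank share their housing and strain and are not independent. Over the means of the 5 tanks the difference was -0.0161 (exact permutation test, two-sided, p = 0.10), which is the smallest p that 10 arrangements allow. Young frogs were sequenced to a mean of 416.6 to 876 reads per CpG, and old frogs to 555 to 692.

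**Figure D1:**
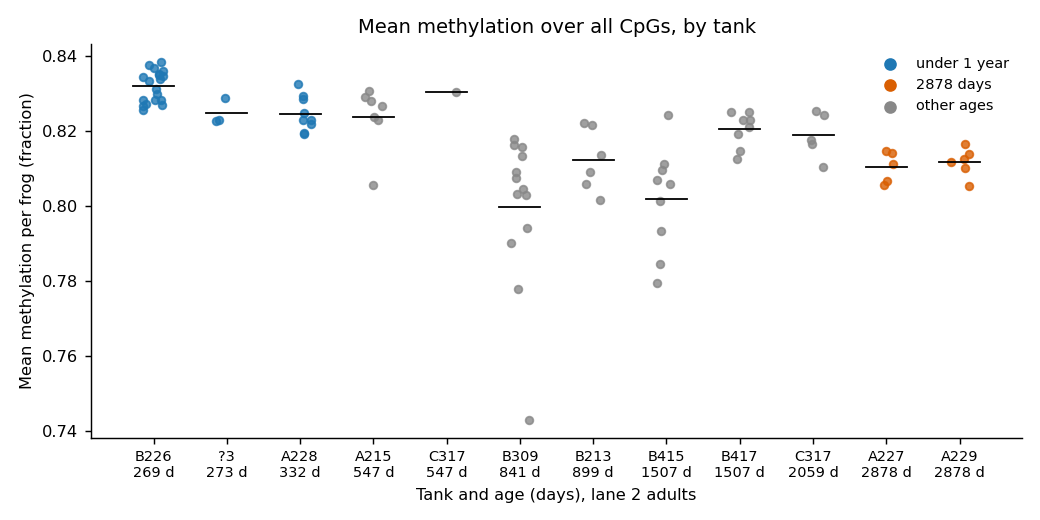
Mean methylation of each lane 2 adult over all CpGs (fraction, vertical axis, not starting at 0) by tank and age in days, with points for frogs and lines for tank means. The frogs of 2878 days lie between 0.805 and 0.816 and the frogs under 1 year between 0.819 and 0.838, while tanks of the ages between did not follow the order of age.

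The lane 2 tanks of the ages between did not fall on a line from young to old. Mean methylation was 0.824 in tank A215 (strain TYR) at 547 days and 0.7995 in tank B309 (CMV MEM GFP) at 841 days. It was 0.812 in tank B213 (OLIG2 F1) at 899 days. The 2 tanks of 1507 days, both of strain NXR 1111, had means of 0.802 in B415 and 0.820 in B417. Tank C317 (tubb2b GFP) at 2059 days had a mean of 0.819, above both old tanks, whose means were 0.810 and 0.812. The means of these tanks thus spanned the range from below the old tanks to the level of the young tanks. Apart from the tanks of NXR 1111, each of these tanks held a different strain, so age and strain cannot be told apart.

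CpG by CpG, more sites were lower than higher in the old frogs. A limma fit on the log2 logit of methylation with tank as a random block called 1130 CpGs lower (16.8% of 6717) and 382 CpGs higher (5.69%) at 2878 days, with an adjusted p under 0.05. The fit estimated a correlation of 0.0868 between tank mates. The lower CpGs had a median difference in methylation of -0.0761, and 157 of them differed by more than 0.2. The higher CpGs had a median difference of 0.0369, and 26 of them differed by more than 0.2. Over all CpGs the median difference was -0.00075. At 1021 of the lower and 333 of the higher CpGs, both old tanks lay on the same side of all 3 young tanks, which held for 25.4% and 18.7% of all CpGs in these directions. Without tank ?3, 1235 CpGs were called lower and 448 higher.

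**Figure D2:**
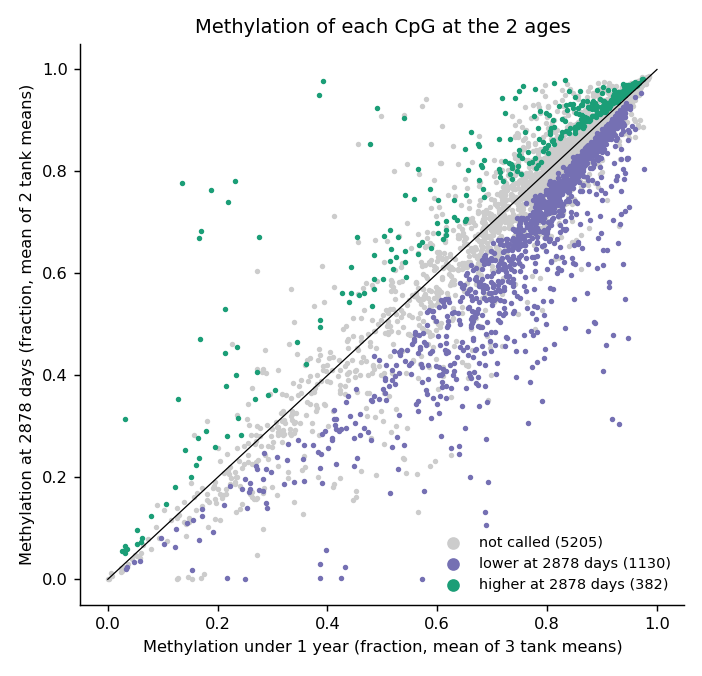
Methylation of each of the 6717 CpGs (fraction) in adults under 1 year (horizontal axis, mean of 3 tank means) and at 2878 days (vertical axis, mean of 2 tank means), with the line of equality. The 1130 CpGs called lower lie mostly at middle and high levels, and many of the 382 called higher lie close to the line.

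Stricter criteria left far fewer CpGs, and mostly lower ones. When the means of the 5 tanks were used in place of frogs, limma called 3.17% of the CpGs lower, with 210 of the 1130 among them, and 0.342% higher, with 22 of the 382 among them, by adjusted p. All 11 old frogs lay below all 31 young frogs at 91 CpGs (1.35%) and above them at 3 CpGs (0.0447%). The 91 CpGs had a median difference of -0.144 and fell in 81 runs of measured CpGs spaced under 500 bases. Of the 91, 34 were inside a gene, as were 37.7% of all CpGs, so this placement does not set them apart. The tank means called 70 of them. The 3 CpGs at which old frogs lay above lie within 1 stretch of LOC116406642, described further on.

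The tanks also differed among themselves. The median absolute difference per CpG between 2 tanks was 0.00634 to 0.0107 among the 3 pairs of young tanks, 0.00986 between the old tanks, and 0.0120 to 0.0175 among the 6 pairs of a young and an old tank. The number of CpGs with tank means more than 0.1 apart was 438 to 662 for pairs of young tanks, 480 for the old pair and 780 to 1033 for pairs across the ages. The ranges did not overlap, and the largest difference between young tanks was close to the smallest difference across the ages.

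The share of called CpGs differed between levels of methylation, which is given as a description. To group CpGs by a value not used in the comparison, their mean in the 9 lane 1 frogs of tank C312 at 726 days was taken. Lower CpGs made up 38.1% of the 1337 CpGs at 0.5 to 0.8 and 31.2% of the 378 CpGs at 0.2 to 0.5. Among the 1498 CpGs at 0.95 and above, 1.20% were lower. Higher CpGs had their largest share, 17.2%, among the 134 CpGs below 0.2, and between 4.87% and 6.13% in all other classes. The higher calls outnumbered the lower calls in this class, with 23 against 20, and in the class at 0.95 and above, with 76 against 18.

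**Figure D3:**
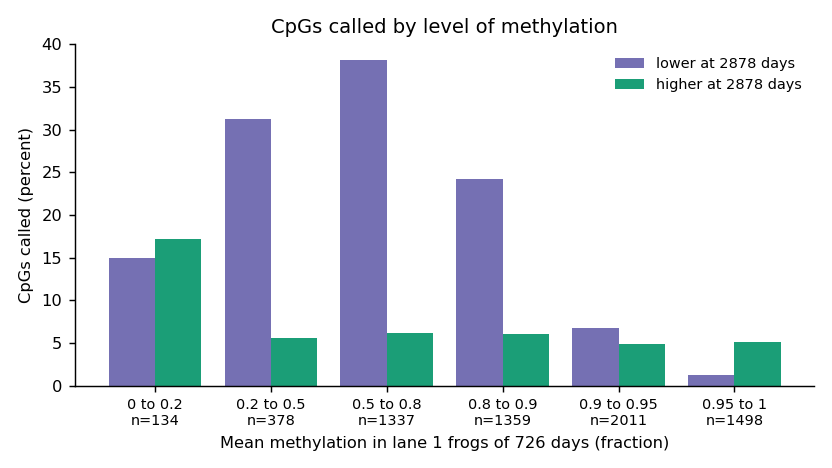
Percent of CpGs called lower or higher at 2878 days (bars from 0) by mean methylation in the lane 1 frogs of 726 days, with the number of CpGs in each class. Lower CpGs reach 38.1% at 0.5 to 0.8, and higher CpGs reach 17.2% below 0.2.

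The calls also differed with the number of measured neighbours. Of the 1107 CpGs with no other measured CpG within 100 bases, 29.0% were lower and 3.88% were higher. Of the 1923 CpGs with 5 or more measured CpGs within 100 bases, 7.90% were lower and 7.33% were higher. The median methylation in young frogs was 0.813 and 0.935 in these 2 classes, so that density and level moved together, and their separate parts were not tested. Of 3754 neighbouring pairs under 50 bases apart, 279 had both members called, and 253 of these had the same direction. As most calls were lower, some of this agreement would arise without any link between neighbours. Over all 3754 pairs the correlation of the differences was 0.276. The listed positions include 104 pairs 1 base apart, as the 2 strands of a CpG would be. Both members were called in 12 of these, all in the same direction. By chromosome, the share of lower CpGs ranged from 13.3% on chromosome 2 to 26.3% on chromosome 10, and the share of higher CpGs from 3.25% on chromosome 1 to 10.6% on chromosome 3.

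The CpGs with the largest falls are given by the rule that both old tanks lie on the same side of all young tanks, with 1 CpG for each run. Clic4 encodes a chloride intracellular channel protein, and 2 of its CpGs were among the 8 largest falls. At chr2:89968485, inside the gene, methylation in young frogs ranged from 0.371 to 0.756 with a median of 0.669, and in old frogs from 0.116 to 0.467 with a median of 0.217. Of the 11 old frogs, 10 lay below the lowest young frog. The difference in log2 logit was -2.54 ± 0.25 (SE, limma, adjusted p = 1.06e-10). At chr2:90011521, young frogs ranged from 0.585 to 0.865 with a median of 0.823 and old frogs from 0.190 to 0.789 with a median of 0.478 (limma, adjusted p = 5.14e-07), and again 10 old frogs were below all young frogs. In the lane 1 frogs the first of these differed by -0.0367 and the second by 0.110 between 726 and 2878 days. The lane 2 tanks of 547 to 2059 days had means of 0.144 to 0.478 at the first, beside 0.257 and 0.234 in the old tanks. At the second they had 0.244 to 0.679, beside 0.474 and 0.428. Means as low as those of the old tanks were thus present at younger ages. At both CpGs the lowest young frogs were frogs 184, 185, 189 and 192 of tank A228, and the highest old frog was frog 108. The 2 falls are thus not separate observations.

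Srgap1 encodes a GTPase-activating protein of the Slit-Robo pathway. At chr3:57150042 in this gene, young frogs ranged from 0.488 to 0.760 with a median of 0.636, and old frogs from 0.162 to 0.398 with a median of 0.250. The groups did not overlap, and this was the only one of the 8 falls for which they did not. The fall was -2.40 ± 0.20 in log2 logit (SE, limma, adjusted p = 3.05e-12). A second CpG on the same probe, chr3:57150010, also separated all frogs, with old frogs at 0.148 to 0.320 and young frogs at 0.419 to 0.701. Lane 1 did not show the same direction at these CpGs, where the frogs of 2878 days were higher by 0.0465 and 0.0395.

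Dpyd encodes dihydropyrimidine dehydrogenase, which breaks down uracil and thymine. At chr4:102689654 in this gene, young frogs ranged from 0.910 to 0.971 with a median of 0.941, and old frogs from 0.455 to 0.945 with a median of 0.512. A single old frog, number 105 of tank A227, was within the range of the young frogs, and the other 10 were at 0.567 or below. The lane 2 tanks of 547 to 2059 days had means of 0.926 to 0.948, as high as the young tanks. Lane 1 showed 0.945 at 726 days and 0.488 at 2878 days. Low values at this CpG were thus present in all 3 tanks of 2878 days, and in none of the tank means of the ages between. The strains of the 3 tanks of 2878 days occurred at no other age, so that age and strain cannot be told apart here. The old frogs of lane 2 formed 2 separate levels, and whether a sequence variant underlies them was not tested.

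The other falls lay near genes of varied function. They were in or near jph3, a junctophilin that joins the plasma membrane to the endoplasmic reticulum, cadps2, a factor of dense-core vesicle release, spata5l1, an AAA ATPase, and tada1, a subunit of the SAGA complex. At chr3:70039743 in cadps2, young frogs had a median of 0.737 and old frogs of 0.422, with 10 old frogs below all young frogs. At chr4:106963480, 17175 bases from tada1, the median was 0.817 in young and 0.265 in old frogs, but the young tanks had means of 0.840, 0.602 and 0.380. The young tanks thus differed widely among themselves, although 10 old frogs were below all young frogs. At chr4:65556760, 1257 bases from jph3, and at chr3:104567351 in spata5l1, only 2 and 1 old frogs were below all young frogs. The tank means called 4 of the 8 falls. In lane 1, 5 of the 8 had the same direction, where 75.9% of all CpGs were lower. These falls thus had the same direction there no more often than the panel.

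**Figure D4:**
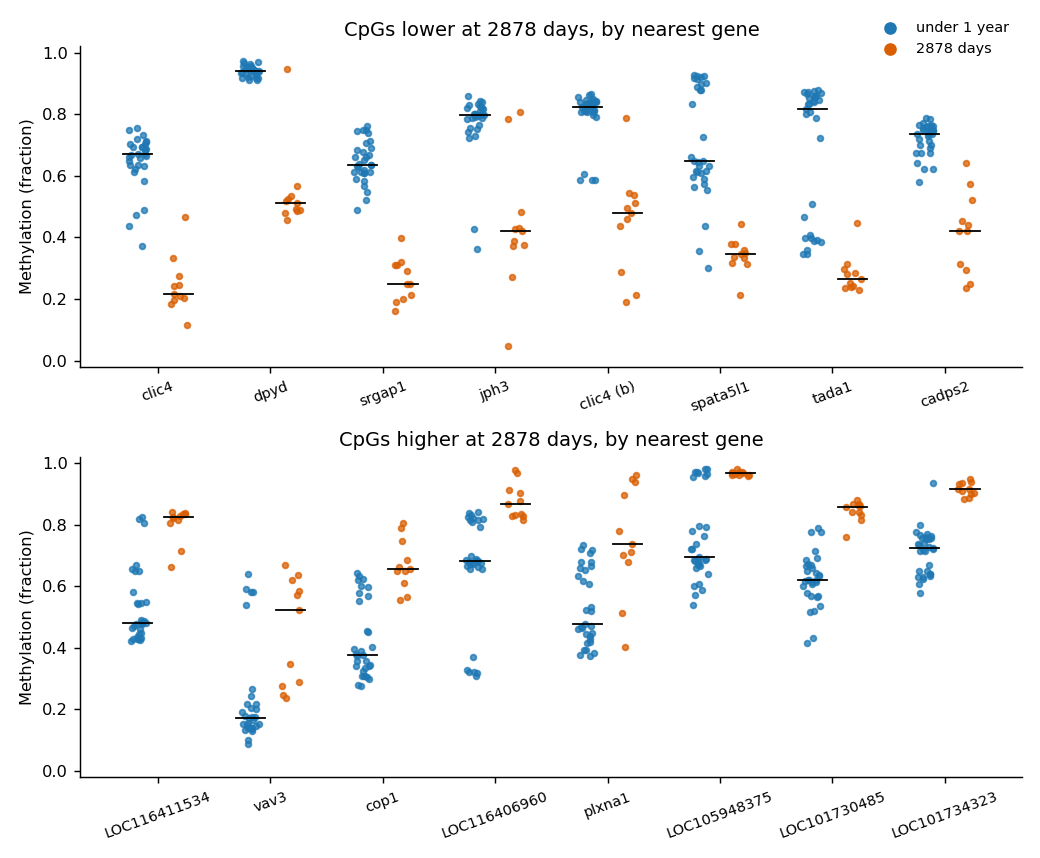
Methylation (fraction) of each frog at the 8 CpGs with the largest falls (top) and the 8 with the largest rises (bottom), named by the nearest gene, for the 31 frogs under 1 year and the 11 frogs of 2878 days, with lines at the medians. Only the srgap1 CpG separates all frogs, and at several CpGs the young frogs form separate levels.

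The largest rises were smaller than the largest falls, with differences in methylation of 0.192 to 0.238 against -0.394 to -0.285. Cop1 encodes an E3 ubiquitin ligase. Its CpG chr4:98635904 ranged from 0.276 to 0.642 with a median of 0.376 in young frogs and from 0.557 to 0.807 with a median of 0.655 in old frogs, with 8 old frogs above all young frogs (limma, log2 logit 1.44 ± 0.30, adjusted p = 0.00025). At chr8:20166896 in LOC101730485, young frogs had a median of 0.621 and old frogs of 0.859, and 10 of the 11 old frogs were above all young frogs. At chr5:37091148 in LOC101734323, the medians were 0.724 and 0.915, with 3 old frogs above all young frogs. Over tank means, limma gave adjusted p = 0.081 at the cop1 CpG, 0.19 at chr8:20166896 and 0.036 at chr5:37091148. The groups overlapped at all 3 CpGs. At the cop1 CpG 8 young frogs were above the lowest old frog, and at chr5:37091148 only 1 young frog was, but it was higher than 8 of the 11 old frogs.

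Vav3 encodes a guanine nucleotide exchange factor. At chr4:110772530, 439 bases from vav3, young frogs ranged from 0.0870 to 0.640 with a median of 0.173 and old frogs from 0.236 to 0.668 with a median of 0.522. This rise was no longer called without tank A229 (limma, adjusted p = 0.39). The rise at chr4:133855315, which lies 230239 bases from plxna1, a semaphorin receptor gene, was no longer called without tank B226 (limma, adjusted p = 0.10). The other rises were at chr6:153869220, chr8:32936218 and chr9:16457664, 7171 to 13552 bases from unnamed loci. Medians in young and old frogs were 0.481 and 0.825 at the first, 0.682 and 0.865 at the second, and 0.695 and 0.968 at the third. The groups overlapped at each of these, with 4, 7 and 7 young frogs above the lowest old frog. At chr6:153869220 the young tanks differed, with means of 0.456, 0.556 and 0.686. All 8 rises had the same direction in lane 1, where 24.1% of all CpGs were higher, and the tank means called 3 of them.

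Some CpGs had frogs that read nearly 0 beside frogs that were methylated. The study removed CpGs whose values fell into 3 levels, and the same kind of filter here marked 543 of the 6717 CpGs, among them 128 lower and 27 higher calls. The largest differences of all were among these. At chr4:111723223, 32597 bases from nr5a2, young frogs ranged from 0.9005 to 0.966 and old frogs from 0 to 0.513, with no overlap. At chr1:213041519 in LOC100489443, young frogs had a median of 0 and a highest value of 0.429, and old frogs had a median of 0.877. At chr3:104938037 in usp8, a deubiquitinase gene, young frogs spread from 0 to 0.990 while all old frogs were above 0.959. At chr4:109053831, old frogs lay between 0 and 0.511 and young frogs between 0.445 and 0.971. Whether a sequence variant underlies these levels was not tested. CpGs whose lowest level was not nearly 0 were left unmarked, and separate levels remain at named CpGs such as those of dpyd, spata5l1 and vav3. A sequence variant was not tested for there either. Without the marked CpGs, 1047 CpGs were called lower and 398 higher.

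Some runs of neighbouring CpGs moved together. Runs were taken by their number of calls in 1 direction, and of the whole panel 16.8% of CpGs were lower and 5.69% higher. Pde3a encodes a phosphodiesterase of cyclic nucleotides, and in this gene all 8 measured positions of chr3:904230-904331 were lower in old frogs, by 0.0162 to 0.0677 in methylation. They are 4 pairs 1 base apart, so they stand for 4 CpGs. The mean over the positions ranged from 0.487 to 0.539 in young frogs and from 0.441 to 0.487 in old frogs, and the highest old frog lay just below the lowest young frog. It was 0.506 at 726 days and 0.468 at 2878 days in lane 1.

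The opposite was seen on chromosome 8. All 8 CpGs of chr8:13391106-13391245, in the gene LOC116406642, were higher in old frogs, by 0.0482 to 0.0841. The mean over the 8 CpGs ranged from 0.794 to 0.860 in young and from 0.876 to 0.921 in old frogs, so that the groups did not overlap. All 8 CpGs were also higher at 2878 than at 726 days in lane 1, with a median difference of 0.0359. The 3 CpGs at which every old frog lay above every young frog, chr8:13391135, chr8:13391160 and chr8:13391179, are in this run, with gaps between the groups of 0.00315, 0.00194 and 0.00266.

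The start of chromosome 10 held CpGs of both directions. In the run chr10:7621-8821, with 20 CpGs, 10 were lower and 3 were higher, and the lower CpGs lay at 0.250 to 0.755 in young frogs, whereas the higher ones lay at 0.922 to 0.946. The mean over the run ranged from 0.688 to 0.732 in young and from 0.638 to 0.679 in old frogs, without overlap. A longer run at chr10:579-3187 held 8 lower CpGs of 21 and no higher ones. Run chr1:32811009-32813256, tied with it in calls, held 8 lower and 3 higher of 75, with a median difference of 0.000597. Its share of lower CpGs, a fraction of 0.107, was below the 16.8% of the panel. On chromosome 6, the run chr6:130885921-130886517 over the transfer RNA gene trnal-uag held 56 measured positions, of which 26 pairs were 1 base apart and 4 stood alone. Of the 56 positions, 12 were higher and 1 was lower, with a median difference of 0.00719, and the 12 include 3 such pairs. In lane 1, 51 of the 56 positions were lower at 2878 days, the opposite direction to most of the calls.

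Many of the CpGs that separated all frogs lay on chromosome 1 between stim2, which encodes a calcium sensor of the endoplasmic reticulum, and LOC108645172. This stretch, chr1:32298887-33277155, held 17 of the 91 CpGs, each in a different run, with differences of -0.208 to -0.0376. It also held 1047 of the measured CpGs, or 15.6% of the panel, and 16.7% of them were lower, a share like the 16.8% of the whole panel. The stretch was chosen after its values were seen, and its share of lower CpGs does not set it apart from the panel.

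Developmental transcription factors were thinly covered, with measured CpGs at 14 of 237 genes. Of 18 CpGs in or within 5 kb of them, 6 were higher (33.3%, beside 5.69% of the panel) and 5 were lower (27.8%, beside 16.8%), with a median difference of 0.00520. The higher ones were 2 at nkx2-2, which specifies ventral neural and pancreatic cells, 2 at pax3, a regulator of neural crest and muscle, and 1 each at the TALE homeobox genes meis1 and meis2. The 2 CpGs of nkx2-2 lie close together, as do the 2 of pax3, so these 6 are not separate observations. Young means were 0.122 and 0.195 at nkx2-2 and 0.152 and 0.236 at pax3. Among CpGs below 0.2 in the lane 1 frogs of 726 days 17.2% were higher, so 5.69% is a low mark for such levels. At chr5:36206600 near nkx2-2, young frogs ranged from 0.0535 to 0.158 and old frogs from 0.123 to 0.264, with medians of 0.117 and 0.184. At chr5:36206616, the medians were 0.1995 and 0.255. The groups overlapped at both, and lane 1 differed in the same direction, by 0.0597 and 0.0402. At the 2 CpGs of pax3 lane 1 differed in the opposite direction, by -0.0236 and -0.0540. The lower ones were near lhx5, lhx1, gli1, hand1 and, at a CpG shared by both, hoxc9 and hoxc10. Their young means were 0.580 at lhx5, 0.892 at lhx1, 0.615 at gli1, 0.781 at hand1 and 0.716 at the shared CpG. Of CpGs at 0.5 to 0.8 in the lane 1 frogs of 726 days, 38.1% were lower, and of those at 0.8 to 0.9, 24.2%. For such levels 16.8% is a low mark too. None of these 11 CpGs was called by the tank means.

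A list of collagens, laminins, keratins, integrins and desmosomal proteins was taken by gene symbol, and not by use in skin. Measured CpGs lay at 12 of its 128 genes. Of these 21 CpGs, 9 were lower (42.9%, beside 16.8% of the panel) and 1 was higher (4.76%, beside 5.69%), with a median difference of -0.0325. The tank means called none of these 10. All calls were at collagens and laminins. The CpGs of the collagens col5a2, col5a3, col13a1 and col18a1 were not called, nor were those of krt62 and itga11. No desmosomal gene had a measured CpG. The lower CpGs were in or near col4a1, col4a6 and lama2, which encode components of basement membranes, and col25a1.2 and col19a1. Their young means were 0.375 near col4a6 and 0.630 to 0.808 at the others. Of CpGs at 0.5 to 0.8 in the lane 1 frogs of 726 days, 38.1% were lower, and of those at 0.8 to 0.9, 24.2%. The 16.8% of the panel is thus a low mark for such levels. At chr2:117373521 near col4a1, young frogs ranged from 0.629 to 0.790 and old frogs from 0.509 to 0.702, with overlap. Of the 9 lower CpGs, 3 belong to the sites with 3 levels, 2 near col25a1.2 and 1 near lama2. The higher CpG lay near col1a2, which encodes a chain of type I collagen, where the median went from 0.217 to 0.281. Of 19 CpGs near signalling ligands and receptors, 3 were lower (15.8%, beside 16.8% of the panel), 2 at fgf5 and 1 at efna2, and none was higher. The fgf5 CpG chr1:95544964 is a site with 3 levels, and in lane 1 it was higher by 0.135 at 2878 days. Of 4 CpGs near genes of the methylation machinery, 1 at uhrf2 was lower (25%, beside 16.8% of the panel) and none was higher. Uhrf2 encodes a reader of hemimethylated DNA. The medians at its CpG were 0.887 and 0.849, the groups overlapped, and lane 1 differed by -0.000642. Over tank means it was not called (limma, adjusted p = 0.21). The dnmt1 CpG chr3:137119998, a site with 3 levels, had means of 0.461 and 0.212. It was not called in the block fit (limma, adjusted p = 0.11) but was over tank means (limma, adjusted p = 0.033).

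Of 37 CpGs in or nearest to rnf14.2, 7 were lower and 4 were higher, beside 16.8% and 5.69% of the panel. The largest fall was at chr3:36676488, with means of 0.592 in young and 0.355 in old frogs and no overlap, and the largest rise at chr3:36666627, from 0.713 to 0.799.

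Most of the lower CpGs had the same direction in frogs of other tanks on lane 1. Between tank C312 of strain Xtr.Tg(CMV:Aequorin,GFP)NXR at 726 days and tank A225 with Xtr.Et(CAGGS-SB10;cryga:RFP)Mead frogs at 2878 days, both on lane 1, 1013 of the 1130 lower CpGs (89.6%) were lower, against 75.9% of all CpGs. Of the 91 CpGs that separated all lane 2 frogs, 88 (96.7%) were lower there. Of the 382 higher CpGs, 201 (52.6%) were higher, against 24.1% of all CpGs, and of the 138 with a rise of more than 0.05 outside the sites with 3 levels, 99 (71.7%) were higher. Strain and tank differ between these lane 1 frogs too, so that age and strain cannot be told apart there.

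A single tank was spread over both lanes. Frog 103 of tank A227 was on lane 1. Its median absolute difference per CpG from the mean of its 5 tank mates on lane 2 was 0.0146. For each of these mates against the mean of the other 4 it was 0.0134 to 0.0163, though a mean of fewer frogs is noisier. By this measure frog 103 lay within the range of its mates. Its mean methylation over all CpGs, 0.816, was above that of every mate, at 0.805 to 0.815. With 1 frog, a difference of lane and one between frogs cannot be told apart.

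The called CpGs took different courses in the lane 2 tanks of the ages between. Each tank was placed on a scale from 0, the mean of the young tanks, to 100, the mean of the old tanks, at every called CpG. For the lower CpGs the median position was 0.598 in tank A215 at 547 days, 74.9 in B309 at 841 days and 90.6 in B213 at 899 days. It was 86.7 and 66.0 in the 2 tanks of 1507 days and 49.9 in C317 at 2059 days. The only frog of tank C317 at 547 days was at 24.2. The tanks of 841 and 899 days were thus closer to the old level than tank C317 at 2059 days, and the 2 tanks of 1507 days differed from each other. Strain differed between these tanks, except that both tanks of 1507 days were NXR 1111 and C317 was tubb2b GFP at both ages. Age and strain thus cannot be told apart in the course over these tanks. For the higher CpGs the positions at the same ages were 19.0, -17.0, 30.5, -17.2, 52.2 and 76.1, with 2 tanks below the young level, and the C317 frog of 547 days was at 79.8. On lane 1, the positions of the lower CpGs were 23.1 at 726 days and 110 at 2878 days, and those of the higher CpGs 53.4 and 56.1.

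**Figure D5:**
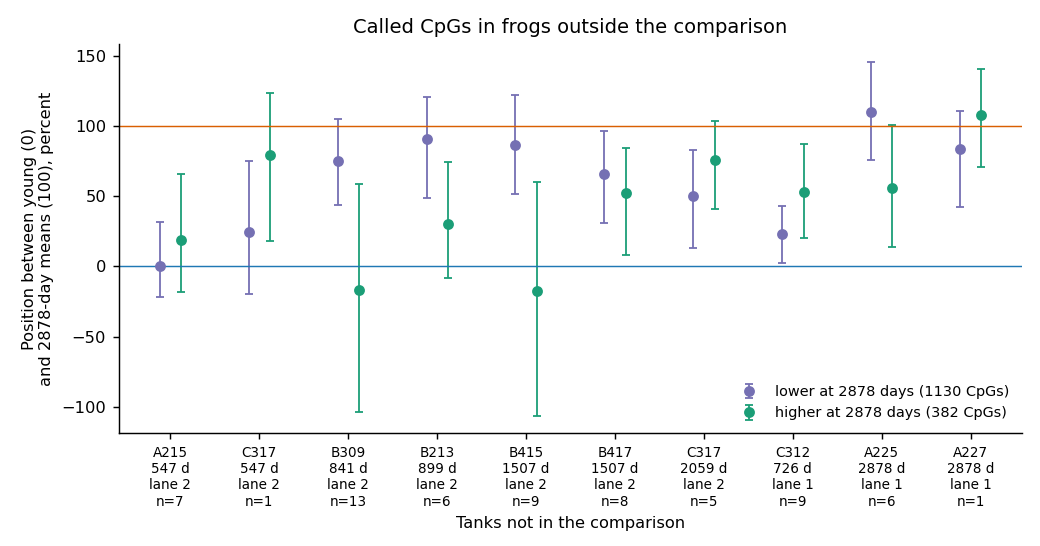
Median position (points) and interquartile range (bars) of the 1130 lower and 382 higher CpGs in tanks outside the comparison, in percent of the way from the young mean (0) to the mean at 2878 days (100). Tanks are ordered by lane and age, with the number of frogs, and the lower CpGs of tanks B309 to B415 lie at 74.9 to 90.6.

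The spread among frogs of a tank did not differ in a general way. The median SD per CpG was 0.0137 to 0.0172 in the young tanks and 0.0171 and 0.0176 in the old tanks. Tank ?3, with 3 frogs and the lowest median SD, was left out of the comparisons that follow. Against the young tanks B226 and A228, 48.6% of CpGs had the larger SD in the old tanks. The old tanks had 5 and 6 frogs and these young tanks 19 and 9. An SD from fewer frogs tends to be lower, and no correction was made for this. Among the lower CpGs, 68.7% had the larger SD in the old tanks, with medians of 0.0342 against 0.0280. Among the higher CpGs, 37.2% had, with medians of 0.0153 against 0.0207. The level of methylation itself differed between the ages at these CpGs, and its part in the spread was not tested.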

How the data were processed

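Targeted bisulfite sequencing of skin punches was processed by the authors, who trimmed reads with fastp, used BiSulfite Bolt for alignment to v10.0, and deposited methylation as a fraction of reads per CpG and frog, where every frog had coverage of 100 or more. The submitters' processing notes also name SAMtools 1.11. The fractions hold no read counts, so per-CpG depth is unknown and no interval is given. Lane, tank, mean CpG depth and probe sequences came from the study's supplementary sheets, and groups from the labels. The probe sheet held here has 1980 rows. In 3148 of 3179 CpGs within these probes, the listed position was the G of a CG.

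The log2 logit of the fraction (offset 0.001) was fitted with limma 3.58.1 in R 4.3.3, with tank as a random block, and p-values were adjusted by the Benjamini-Hochberg method over 6717 CpGs, with a threshold of 0.05. Differences in methylation are between means of tank means. On simulated data, 87 of 100 CpGs shifted by 2 SD and 15 of 100 shifted by 1 SD were called, as were 11 of 6517 unchanged ones. These 11 false calls were a larger share of all calls in the simulation than the threshold of 0.05. The simulation gave every CpG the same small tank share of normal noise, which is what the fit assumes. It cannot show how often CpGs are falsely called where tanks differ more or frogs form separate levels. Sites with 3 levels were found with Gaussian mixtures (BIC difference above 90 and a value below 0.006), which marked 543 CpGs. The marked CpGs stayed in the main fit and its counts, and were left out only where this is stated. A CpG with separate levels that all lie above 0.006 passes this filter, so such CpGs remain among those named. Genes are spans of RefSeq (UCB_Xtro_10.0), and distances are to the nearest end, since strand was not given. Exons and introns were not analysed here. The CpGs named are the 8 largest falls and 8 largest rises called, outside the sites with 3 levels and with old tanks on the same side of all young tanks, 1 per run, the 4 largest differences among the sites with 3 levels, and the 4 runs with most calls in 1 direction, where ties were settled by the share of the run called. Others, such as the chromosome 1 stretch, the other runs with as many calls as the last of these, and members of the gene lists, were chosen after their values were seen. The members and lists were chosen with earlier results of these data known. Alternatives changed the block, scale, offset, CpGs, threshold, depth covariate and frogs included. The block fit used the same correlation between tank mates, 0.0868, at every CpG. Its p-values thus rest mostly on the spread between frogs and less on that between tanks. They can be too small where tanks differ more, as near tada1 (chr4:106963480). There the adjusted p was 1.99e-05 in the block fit and 0.27 over tank means (limma). The p-values over tank means measure the spread between tanks.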

Additional observations from a re-analysis of the deposited data

Results flagged for a closer look

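The named CpGs were screened for a frog that stands apart from its tank mates, in 63 groups of 4 to 10 frogs, and 9 values were found. Chance flags about 1 in 20 such groups if values are normal and groups independent. The screened CpGs include sites with separate levels, and the same frogs recur across CpGs, so this rate does not hold here. Of the 9, 8 were in tank A227 and involved 3 frogs. Frog 104 had the value 0.213 near spata5l1 (chr3:104567351), against 0.315 to 0.348 in its mates, and 0.807 at the cop1 CpG chr4:98635904, against 0.648 to 0.684. At 2 sites with 3 levels it was also apart, with 0.00813 near nr5a2 (chr4:111723223) and 0 at chr4:109053831, where its mates lay at 0.418 to 0.513 and 0.480 to 0.511.

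Frog 105 was at 0.945 in dpyd (chr4:102689654), where its mates lay at 0.486 to 0.567. It was at 0.445 near tada1 (chr4:106963480) and at 0.573 near vav3 (chr4:110772530), above mates at 0.236 to 0.284 and 0.236 to 0.288. Frog 106 was at 0.489 at the site with 3 levels chr1:213041519, below mates at 0.893 to 0.939. In tank A228, frog 188 was at 0.640 near vav3, where the other frogs lay at 0.139 to 0.244.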

How the results depend on the processing

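No paired analysis was possible because the young and old frogs share no replicate number that marks a common origin. The share of CpGs lower at 2878 days was 16.8% and changed by more than 1.5 times with the means of the 5 tanks, to 3.17%, and with an adjusted p of 0.001, to 8.26% (555 CpGs). The share of higher CpGs was 5.69% and changed to 0.342% (23 CpGs) with tank means, to 1.31% (88 CpGs) with an adjusted p of 0.001, and to 11.02% (740 CpGs) without the tank block. Leaving out a tank gave 841 to 1235 lower CpGs and 283 to 448 higher ones, but without tank A229 only 217 of the 382 higher CpGs and 848 of the 1130 lower CpGs were called again. The difference in mean methylation was -0.0161 over tank means, where p could not go below 0.10. The median difference in within-tank SD, with tank ?3 left out, was -0.000213 on fractions and -0.00147 on the logit scale. Of the 16 named CpGs outside the sites with 3 levels, 9 were not called over tank means, and no direction was reversed in the fits that were run. With 2 old tanks, a difference of age and one of strain or tank cannot be told apart at any depth.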
